A study of Homo sapiens with 15 samples.

Results

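The genes described here are 50 human genes of mitosis, the spindle and cytokinesis, measured in xenograft tumours of the lung adenocarcinoma line A549. They were taken by symbol from a list of mitotic genes, with no threshold on their values. The list was chosen with earlier results of these data known. Each of the 50 had exactly 1 row among the 60649 human rows of the deposited count table, and all 50 passed the filter on low counts that left 15435 human genes for testing. A549 is an established line from a human lung carcinoma that is widely grown as a xenograft. Cells injected under the skin of BALB/c nude mice, which lack a thymus and mature T cells but keep innate immune cells, gave the tumours. The study had 3 groups of 5 tumours. All 15 tumours came from the same line in the same kind of host. The no-stress mice received no restraint, the stress mice were restrained 7 days before the cells were given, and the post-stress mice were restrained 12 days after. The labels do not say whether 7 and 12 are durations or starting days, so the timing of restraint separates the stress and post-stress groups and its length may do so as well. The title of the series names chronic stress, macrophages and lung cancer progression as its subject. Each library was made from 1 xenograft, and only its human counts are used for the genes described here.

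These genes act in the last hours of the cell cycle. Cyclin B with CDK1 starts mitosis, Polo and Aurora kinases build the spindle, kinetochore proteins tie chromosomes to microtubules, and the spindle checkpoint holds the cell until every chromosome is attached. The anaphase-promoting complex with CDC20 then destroys cyclin B and securin, and kinesins with RhoA regulators divide the cell. Most of the genes are transcribed in G2 and mitosis under the DREAM and MuvB complexes with B-MYB and FOXM1, which act at promoter elements called CHR, and NF-Y binds CCAAT boxes in the same promoters.

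The promoter elements that the group is known for can be read in the reference sequence. The windows printed here run over 150 bases up to the annotated start, 5′ to 3′ on the strand of the gene, and come from the promoter table of RefSeq (GRCh38.p14). Capitals mark the CHR motif, searched as TTTGAA or TTCGAA, and the CCAAT box, both searched on both strands, so that the reverse strand reads TTCAAA and ATTGG. The 7 genes shown are a selection, and ECT2 is shown because its RNA did not fall with the others. Genes that are not shown include KIF20A and NCAPH, which held CCAAT boxes but neither CHR spelling. The windows lie at chr5:69167000-69167149 (CCNB1, plus strand), chr15:59104996-59105145 (CCNB2, plus), chr16:23678739-23678888 (PLK1, plus), chr1:43358831-43358980 (CDC20, plus), chr1:197146670-197146819 (ASPM, minus), chr10:128126424-128126573 (MKI67, minus) and chr3:172750576-172750725 (ECT2, plus).
CCNB1: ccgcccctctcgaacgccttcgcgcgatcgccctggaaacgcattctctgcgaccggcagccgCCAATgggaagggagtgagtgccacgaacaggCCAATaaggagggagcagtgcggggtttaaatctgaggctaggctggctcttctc
CCNB2: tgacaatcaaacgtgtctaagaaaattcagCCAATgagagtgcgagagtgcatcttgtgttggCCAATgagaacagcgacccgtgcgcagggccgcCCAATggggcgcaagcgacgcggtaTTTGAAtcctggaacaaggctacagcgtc
PLK1: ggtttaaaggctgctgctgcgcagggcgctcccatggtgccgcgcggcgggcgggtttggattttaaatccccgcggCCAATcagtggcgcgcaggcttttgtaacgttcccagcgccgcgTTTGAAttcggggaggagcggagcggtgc
CDC20: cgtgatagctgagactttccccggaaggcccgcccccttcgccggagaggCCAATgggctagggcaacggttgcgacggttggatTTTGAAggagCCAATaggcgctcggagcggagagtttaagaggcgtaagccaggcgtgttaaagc
ASPM: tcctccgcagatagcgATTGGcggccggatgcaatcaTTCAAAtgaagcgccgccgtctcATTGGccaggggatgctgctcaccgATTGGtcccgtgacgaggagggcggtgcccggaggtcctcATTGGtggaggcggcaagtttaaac
MKI67: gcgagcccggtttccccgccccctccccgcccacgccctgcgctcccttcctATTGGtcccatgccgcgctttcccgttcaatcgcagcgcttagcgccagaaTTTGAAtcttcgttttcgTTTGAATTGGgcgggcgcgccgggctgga
ECT2: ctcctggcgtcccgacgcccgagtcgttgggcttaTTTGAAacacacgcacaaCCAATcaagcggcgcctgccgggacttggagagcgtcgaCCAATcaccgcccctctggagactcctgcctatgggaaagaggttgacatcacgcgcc

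CCNB2 carried 3 CCAAT boxes whose starts lay 33 bases apart, followed by 1 CHR motif. ASPM carried 4 CCAAT boxes on the reverse strand. MKI67 held 2 TTTGAA motifs, and the second of them overlaps an ATTGG. CCNB1 held 2 CCAAT boxes 32 bases apart and neither CHR spelling in the printed stretch, which says only that these letters are not there. The table held 44 of the 50 genes. It had no entry for FOXM1, AURKA, TTK, BIRC5, TPX2 and UBE2C. In the full windows, from 250 bases before to 50 after the start, 35 of the 44 genes (79.5%) held TTTGAA or TTCGAA, against 16.4% of all 35116 promoters in the table. At least 1 CCAAT box stood in 33 of 44 (75%), against 34.6% of all promoters, and both kinds stood in 27 of 44 (61.4%), against 6.38%. Among 31 genes of S phase and DNA replication only 2 (6.45%) held a CHR motif, while 19 (61.3%) held a CCAAT box. The members' CHR motifs lay close to the start: 34 of 47 (72.3%) began between 75 bases before and 25 after it, against 28.4% of such motifs in all promoters. A match is a description of letters and not of binding. Genes with and without the motif were called lower in the stress group, where 5.22% of all tested genes were. Of the 35 with it 23 were called (median log2 fold change -0.50), and of the 9 without it 5 were (median -0.55). Whether the motif bears on the fall was not tested. ECT2 holds both kinds of element. Its 2 TTTGAA motifs begin at bases -115 and 35 from the start, outside the stretch of 75 before to 25 after.

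Total counts per library ran from 16729091 to 19680449, and human counts from 12877165 to 15892705. The level of a gene is given in CPM, its counts relative to all human counts of the library after TMM scaling. The share of mouse counts was 22.6 ± 6.65% in the no-stress, 21.0 ± 2.34% in the stress and 17.6 ± 4.93% in the post-stress tumours (SD, n = 5 each). No-stress tumours 1 and 5 had the highest mouse shares, 30.2% and 29%. Of 9 markers of A549 and airway epithelium, 8 passed the filter, with a summed level of 15452 to 21688 CPM over the 15 tumours. KRT19, a keratin of simple epithelia, stayed under 1 CPM in all 15. Markers of other cell types had lower sums. Of 11 leukocyte markers 8 stayed under 1 CPM in all 15 tumours, and the 11 summed to 14.3 to 27.9 CPM in the no-stress and 18.02 to 23.4 CPM in the stress tumours. The 7 fibroblast markers summed to 96.8 to 199.96 CPM in the no-stress and 106 to 170 CPM in the stress tumours, and 6 endothelial markers to 13.0 to 20.7 and 9.78 to 16.3 CPM. None of the 3 leukocyte, 4 fibroblast and 1 endothelial markers that passed the filter was called between stress and no stress by edgeR. Of the 8 tested A549 markers 2 were called lower in the stress group, where 5.22% of all tested genes were. ALDH3A1, an aldehyde dehydrogenase, was among the 2. The part of these markers in the results was not tested.

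In the stress tumours RNA of most of the mitotic genes was lower. Of the 50 genes 32 were called lower (adjusted p under 0.05, edgeR quasi-likelihood test with Benjamini-Hochberg adjustment over 15435 genes) where 5.22% of all tested genes were, and 0 were called higher where 5.23% were. The log2 fold change was negative for 48 of 50, with a median of -0.51, a level of 0.702 of no stress, while the median over all tested genes was -0.0072. Unadjusted p was under 0.05 for 45 of the 50, and for 4033 of the 15435 tested genes in either direction. In bulk RNA, fewer cells in G2 and mitosis and less RNA of these genes per cell cannot be told apart. In 15 genes all 5 stress tumours lay below all 5 no-stress tumours, which 4.7% of all tested genes showed. In 31 genes at least 4 of the stress tumours did, for which no share over all tested genes was computed. The called genes fell to between 0.444 (SPC25) and 0.744 (SMC4) of their no-stress level. The number of calls rested partly on single tumours: 13 genes were called without no-stress tumour 1, 15 without stress tumour 1 and 18 without stress tumour 2. Without no-stress tumours 1 and 5 together 20 were called. When each tumour was left out in turn the median of the 50 stayed between -0.59 and -0.39. All 19 calls lost in any of those 15 fits were lost without no-stress tumour 1.

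**Figure D1:**
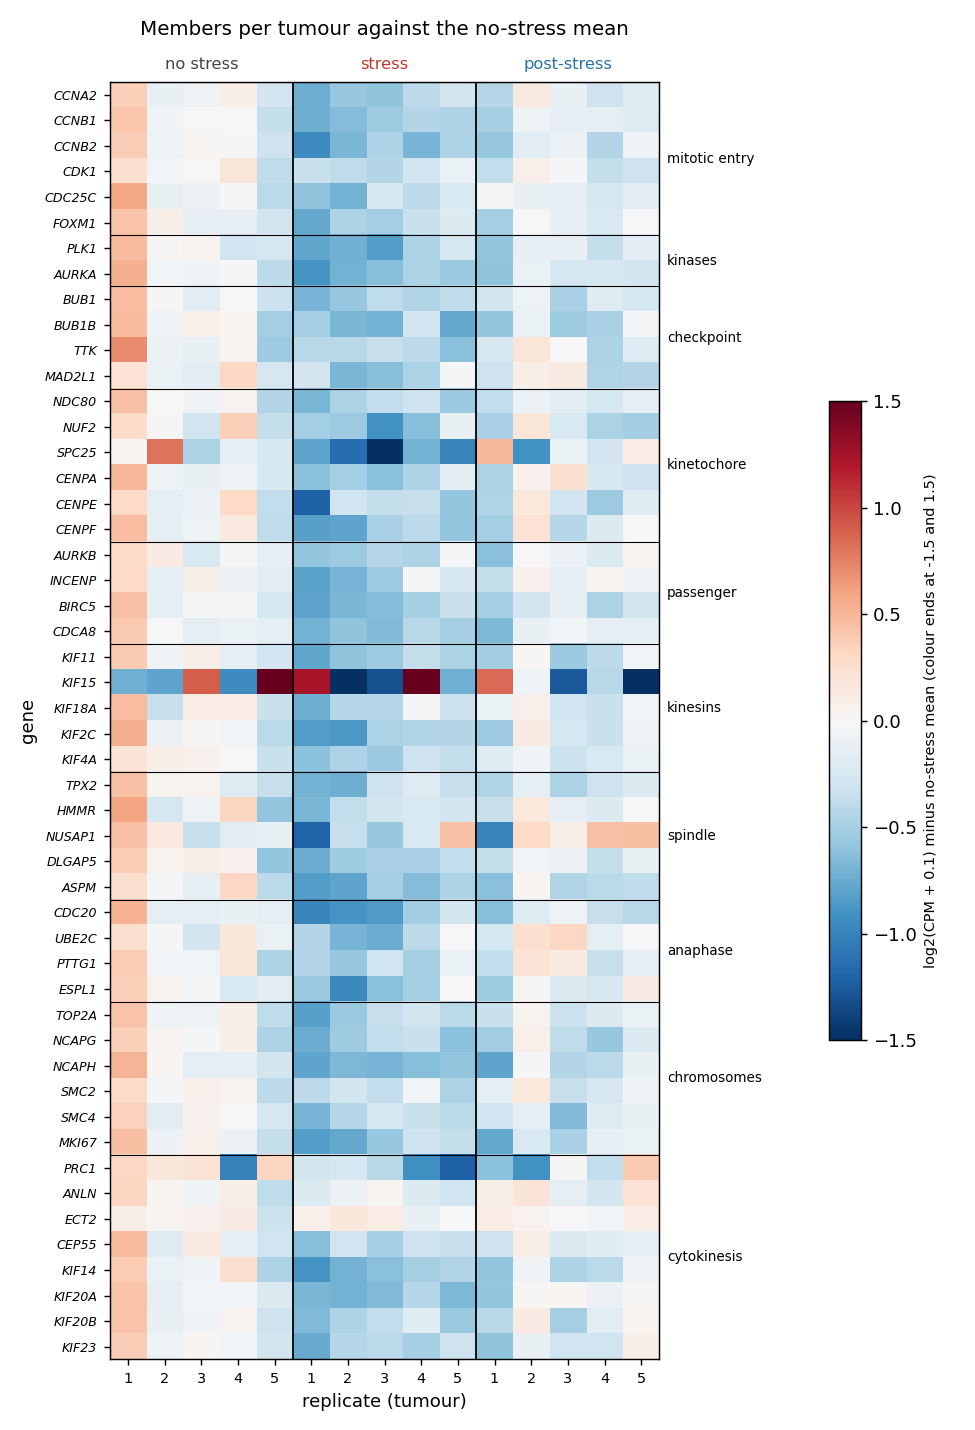
Each row is 1 of the 50 genes, ordered by role, and each column 1 of 15 tumours. Colour gives log2(CPM + 0.1) minus the mean of the 5 no-stress tumours. No-stress tumour 1 is red in nearly all rows, the stress columns are blue in most rows, and the post-stress columns are paler. KIF15, SPC25, NUSAP1 and PRC1, the 4 genes under 2 CPM, scatter.

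Among the genes of entry into mitosis 4 of 6 were called lower. CCNB1, the cyclin that activates CDK1 at mitotic entry, stood at 121, 87.3, 90.3, 90.04 and 70.9 CPM in no-stress tumours 1 to 5 and at 54.3, 57.4, 62.8, 66.9 and 65.7 CPM in stress tumours 1 to 5. Every stress tumour was below every no-stress tumour. The mean fell from 91.8 ± 17.98 to 61.4 ± 5.39 CPM (SD, n = 5 each; log2 fold change -0.58, SE 0.12, edgeR adjusted p = 0.00631). CCNB2, a second B-type cyclin, was at 49.03, 36.05, 39.3, 37.5 and 30.7 CPM in the no-stress and 19.8, 23.6, 27.7, 23.5 and 27.7 CPM in the stress tumours. Its groups did not overlap either (log2 fold change -0.65, SE 0.13, edgeR adjusted p = 0.00621). CCNA2, the cyclin of S phase and G2, fell from 35.4 ± 6.11 to 24.6 ± 3.11 CPM (log2 fold change -0.52, SE 0.13, edgeR adjusted p = 0.0156). FOXM1, a transcription factor of G2 and M genes, fell from 58.1 ± 11.6 to 41.97 ± 5.96 CPM (log2 fold change -0.47, SE 0.13, edgeR adjusted p = 0.0345). CDK1, the kinase that drives mitosis, was at 75 ± 12.2 and 59.97 ± 5.49 CPM and was not called (log2 fold change -0.32, SE 0.12, edgeR adjusted p = 0.0812). The same held for CDC25C, a phosphatase that activates CDK1, at 8.63 ± 2.35 and 6.23 ± 0.917 CPM (edgeR adjusted p = 0.0781). CCNB1 and CCNB2 kept their calls in all 15 fits that left out 1 tumour. Without no-stress tumour 1 the edgeR adjusted p was 0.0555 for CCNA2 and 0.113 for FOXM1, and without no-stress tumour 5 CDK1 and CDC25C were called, at 0.0264 and 0.0414.

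Both mitotic kinases of the list, PLK1 and AURKA, were called lower. PLK1, the Polo kinase needed for centrosome maturation and spindle assembly, was at 60.4, 44.2, 45.1, 35.7 and 36.1 CPM in the no-stress tumours and at 25.3, 26.3, 24.2, 31.6 and 36.1 CPM in the stress tumours. Stress tumour 5 reached the range of the no-stress group and the other 4 lay below it. The mean was 44.3 ± 10.00 against 28.7 ± 5.02 CPM (SD, n = 5 each; log2 fold change -0.63, SE 0.15, edgeR adjusted p = 0.0144). AURKA, a kinase of the spindle poles, was at 65.1, 43.96, 42.97, 44.3 and 34.3 CPM and at 24.5, 27.6, 28.95, 32.4 and 30.6 CPM in the same order of groups, with no overlap (log2 fold change -0.68, SE 0.14, edgeR adjusted p = 0.00689). Neither the PLK1 nor the AURKA call was lost when any 1 tumour was left out.

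**Figure D2:**
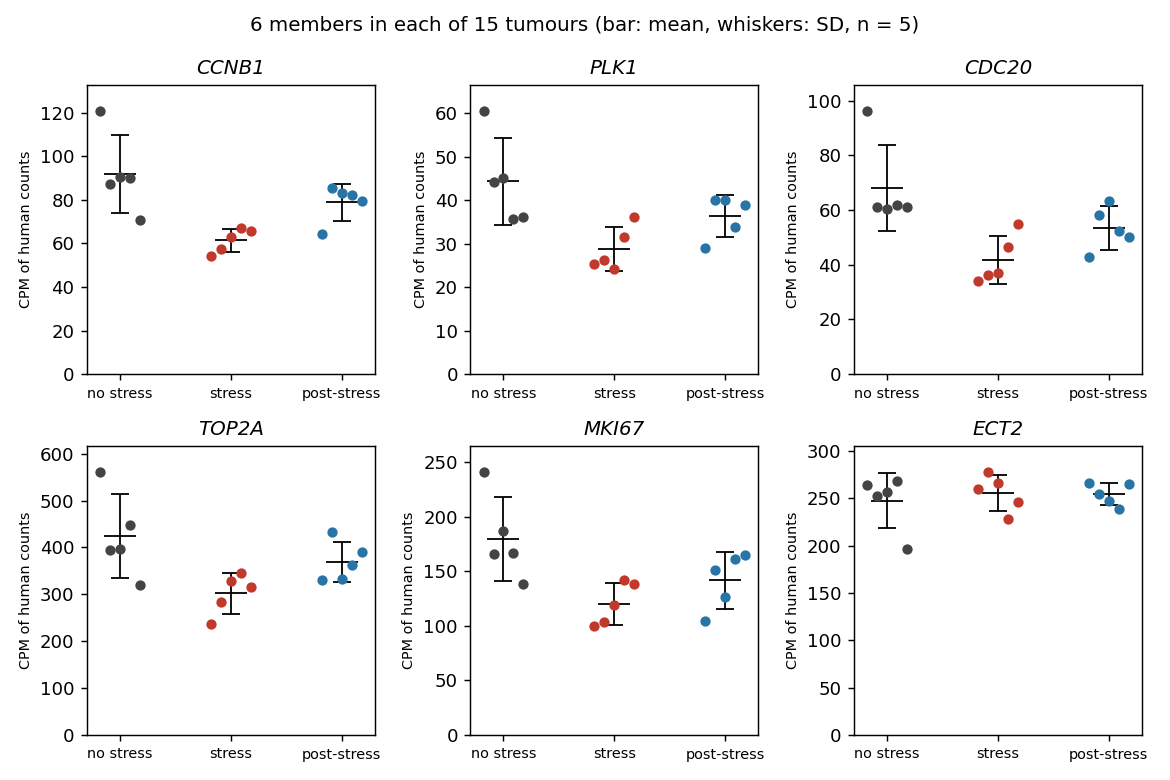
Level in CPM of human counts of CCNB1, PLK1, CDC20, TOP2A, MKI67 and ECT2 in each tumour, with the mean and SD of each group (n = 5). The stress points of CCNB1 and CDC20 lie below all no-stress points, those of PLK1, TOP2A and MKI67 overlap the lower end of the no-stress group, and the 3 groups of ECT2 lie at one height, between 197 and 278 CPM.

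Of the 4 checkpoint genes 2 were called lower. BUB1, a checkpoint kinase at the kinetochore, was at 54.4, 40.04, 34.9, 39.7 and 31.5 CPM without stress and at 24.2, 26.5, 30.4, 28.8 and 30.3 CPM with stress, and the groups did not overlap (log2 fold change -0.52, SE 0.12, edgeR adjusted p = 0.0152). BUB1B, which encodes the checkpoint protein BUBR1, fell from 26.96 ± 6.49 to 17.5 ± 2.49 CPM (log2 fold change -0.62, SE 0.16, edgeR adjusted p = 0.0214). That call was lost in 5 of the 15 fits that left out 1 tumour, with an adjusted p of 0.0732 without no-stress tumour 1. TTK, the kinase MPS1 that recruits the checkpoint, was at 17.9 ± 6.13 and 12.6 ± 0.945 CPM and was not called (edgeR adjusted p = 0.0840). Its 5 stress tumours lay within 11.01 to 13.5 CPM while no-stress tumour 1 alone stood at 28.1 CPM, and without no-stress tumour 5 it was called (edgeR adjusted p = 0.0313). MAD2L1, the checkpoint protein that holds CDC20, was at 36.5 ± 6.39 and 27.3 ± 5.44 CPM (edgeR adjusted p = 0.0959) and was called in no fit that left out 1 tumour.

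Of the 6 kinetochore genes 3 were called lower and all 6 had negative log2 fold changes. SPC25, a subunit of the NDC80 complex, had the lowest log2 fold change of the 50 (log2 fold change -1.17, SE 0.33, edgeR adjusted p = 0.0330). It was at 1.55, 2.73, 1.05, 1.36 and 1.26 CPM in the no-stress and 0.828, 0.627, 0.471, 0.879 and 0.706 CPM in the stress tumours, so that the groups did not overlap. These levels are few reads, as its lowest library held 7 counts, and its call was lost in 6 of 15 fits that left out 1 tumour (adjusted p = 0.0697 without no-stress tumour 1). NDC80, which binds microtubules, fell from 15.6 ± 3.42 to 11.01 ± 1.15 CPM (log2 fold change -0.50, SE 0.14, edgeR adjusted p = 0.0265). CENPF, a large protein of the outer kinetochore, was at 180.1, 118, 124, 145 and 100.1 CPM and at 74.5, 75.7, 93.5, 99.7 and 87.4 CPM, again with no overlap (log2 fold change -0.63, SE 0.16, edgeR adjusted p = 0.0213). Without no-stress tumour 1 the adjusted p was 0.0941 for NDC80 and 0.0607 for CENPF. NUF2, the partner of NDC80, CENPA, the histone that marks centromeres, and CENPE, a kinesin that moves chromosomes to the plate, had edgeR adjusted p values of 0.0522, 0.0508 and 0.0572. Their log2 fold changes, -0.55, -0.50 and -0.55, were of the size of those called, and all 3 were called by DESeq2's Wald test. Without no-stress tumour 5 all 3 were called by edgeR too (adjusted p = 0.0354, 0.0441 and 0.0375). NUF2 was also called without stress tumour 5 or post-stress tumour 2, CENPA without stress tumour 5 or post-stress tumour 1 or 3, and CENPE without post-stress tumour 2.

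The chromosomal passenger complex joins the kinase AURKB to INCENP, survivin (BIRC5) and borealin (CDCA8) and corrects faulty attachments. BIRC5 was at 98.97, 66.2, 71.9, 71.8 and 60.4 CPM in the no-stress and at 41.9, 45.2, 46.4, 51.7 and 57.6 CPM in the stress tumours, without overlap (log2 fold change -0.60, SE 0.12, edgeR adjusted p = 0.00649). CDCA8 was at 33.7, 25.9, 23.2, 24.1 and 23.2 CPM and at 15.7, 16.9, 16.2, 19.3 and 18.3 CPM, also without overlap (log2 fold change -0.59, SE 0.13, edgeR adjusted p = 0.00912). Both calls held when any 1 tumour was left out. INCENP fell from 34.8 ± 4.95 to 25.6 ± 5.91 CPM (log2 fold change -0.44, SE 0.14, edgeR adjusted p = 0.0475), and this call was lost in 12 of 15 such fits, with an adjusted p of 0.146 without no-stress tumour 1. AURKB was at 22.5, 20.02, 15.7, 18.1 and 16.7 CPM and at 12.3, 12.5, 13.7, 13.4 and 17.99 CPM. Its stress tumour 5 sat among the no-stress tumours and the other 4 lay below them (edgeR adjusted p = 0.0708). Without stress tumour 5 or post-stress tumour 1 AURKB was called.

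Among the kinesins of spindle and chromosomes 3 of 5 were called lower. KIF11, the motor that pushes the poles apart, fell from 62.2 ± 11.7 to 41.98 ± 4.54 CPM without overlap (log2 fold change -0.57, SE 0.13, edgeR adjusted p = 0.0152). KIF2C, which depolymerises microtubules at centromeres, was at 53.2, 34.6, 37.2, 35.8 and 27.7 CPM in the no-stress and at 20.6, 20.2, 26.5, 26.8 and 27.2 CPM in the stress tumours, without overlap (log2 fold change -0.64, SE 0.16, edgeR adjusted p = 0.0197). KIF4A, a chromosome-bound kinesin of the central spindle, fell from 55.7 ± 7.25 to 40.4 ± 3.60 CPM (log2 fold change -0.46, SE 0.093, edgeR adjusted p = 0.00648), and its call held in all 15 fits that left out 1 tumour. Without no-stress tumour 1 the edgeR adjusted p was 0.0507 for KIF11 and 0.0576 for KIF2C. KIF18A, which damps chromosome movements, was at 19.8 ± 4.82 and 15.03 ± 2.72 CPM and was not called (edgeR adjusted p = 0.111), but was without stress tumour 4. KIF15, a second motor of spindle bipolarity, ran from 0 CPM in a post-stress tumour to 2.37 CPM in a stress tumour. It gives no direction at this depth (log2 fold change 0.094, SE 0.84, edgeR adjusted p = 0.959).

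Of the 5 spindle assembly genes 3 were called lower. ASPM, a protein of the spindle poles, stood at 117, 96.6, 90.3, 122 and 74.7 CPM in the no-stress tumours. In the stress tumours it stood at 54.9, 57.03, 69.5, 62.9 and 70.98 CPM, all below the lowest no-stress tumour (log2 fold change -0.66, SE 0.14, edgeR adjusted p = 0.00736). DLGAP5, which bundles kinetochore fibres, fell from 33.2 ± 7.43 to 22.7 ± 2.12 CPM (log2 fold change -0.55, SE 0.13, edgeR adjusted p = 0.0159). TPX2, the activator of AURKA, fell from 59.3 ± 12.7 to 42.9 ± 7.25 CPM (log2 fold change -0.47, SE 0.14, edgeR adjusted p = 0.0385). The ASPM call held when any 1 tumour was left out, while without no-stress tumour 1 the adjusted p was 0.0573 for DLGAP5 and 0.122 for TPX2. HMMR, a spindle protein that TPX2 binds, was at 45.98 ± 14.8 and 34.4 ± 4.14 CPM, with a no-stress range of 29.3 to 66.4 CPM that held 4 of the 5 stress tumours (edgeR adjusted p = 0.146). HMMR was called without no-stress tumour 5 (adjusted p = 0.0377). NUSAP1, a microtubule-bundling protein, was under 1 CPM in all 15 tumours (edgeR adjusted p = 0.615).

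Of the 4 genes of anaphase and protein destruction 2 were called lower. CDC20, which turns on the anaphase-promoting complex, was at 96.1, 60.99, 60.2, 61.8 and 60.98 CPM in the no-stress tumours, 4 of them within 60.2 to 61.8 CPM. The stress tumours were at 33.9, 36.3, 37.03, 46.5 and 54.96 CPM, all below that range (log2 fold change -0.70, SE 0.16, edgeR adjusted p = 0.0125). This call held when any 1 tumour was left out, but not without no-stress tumours 1 and 5 together (edgeR adjusted p = 0.0513). ESPL1, separase, which cuts cohesin, fell from 27.3 ± 4.54 to 19.1 ± 4.81 CPM (log2 fold change -0.52, SE 0.16, edgeR adjusted p = 0.0498), a call at the threshold that was lost in 11 of 15 fits that left out 1 tumour (adjusted p = 0.151 without no-stress tumour 1). UBE2C, the ubiquitin-conjugating enzyme of the complex, was at 25.96 ± 3.75 and 19.1 ± 4.18 CPM (edgeR adjusted p = 0.0626). PTTG1, securin, the inhibitor of separase, was at 32.4 ± 6.89 and 24.5 ± 3.31 CPM (edgeR adjusted p = 0.0933). UBE2C was called without stress tumour 5 and PTTG1 without no-stress tumour 5.

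Genes of chromosome structure included 5 of 6 called lower. TOP2A, the topoisomerase that untangles sister DNA, was at 561, 395, 396, 448 and 321 CPM in the no-stress and at 237, 283, 329, 346 and 315 CPM in the stress tumours. Stress tumours 3 and 4 reached above the lowest no-stress tumour, which was number 5. The mean fell from 424 ± 88.9 to 302 ± 43.2 CPM (SD, n = 5 each; log2 fold change -0.49, SE 0.13, edgeR adjusted p = 0.0273). MKI67, which coats mitotic chromosomes and is the clinical marker of proliferation Ki-67, was at 241, 165, 187, 167 and 138 CPM and at 99.6, 104, 119, 142 and 138 CPM (log2 fold change -0.58, SE 0.15, edgeR adjusted p = 0.0272). Stress tumour 4 was above the lowest no-stress tumour and the other 4 were below it. NCAPH, a condensin I subunit, was at 49.4, 35.3, 31.4, 31.4 and 28.6 CPM and at 19.9, 21.5, 21.3, 22.1 and 22.8 CPM, without overlap and with a stress SD of 1.09 CPM (log2 fold change -0.71, SE 0.15, edgeR adjusted p = 0.00794). NCAPG, its partner, and SMC4, a core condensin ATPase, fell with log2 fold changes of -0.54 and -0.43 (edgeR adjusted p = 0.0246 and 0.0329). SMC2, the other core ATPase, was at 74.5 ± 12.2 and 59.7 ± 7.23 CPM and was not called (edgeR adjusted p = 0.0897), but was without no-stress tumour 5 or stress tumour 4. The NCAPH call held when any 1 tumour was left out. Without no-stress tumour 1 the adjusted p was 0.0937 for TOP2A, 0.0797 for MKI67, 0.0844 for NCAPG and 0.115 for SMC4.

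The 8 cytokinesis genes split into 5 called lower and 3 that were not. KIF20A, a kinesin of the cleavage furrow and midzone, had the smallest adjusted p of the 50. It was at 52.3, 35.8, 37.8, 37.8 and 33.5 CPM in the no-stress tumours and at 24.1, 23.8, 24.6, 28.9 and 24.3 CPM in the stress tumours, a gap with no overlap (log2 fold change -0.65, SE 0.13, edgeR adjusted p = 0.00579). KIF14, which recruits citron kinase to the midbody, fell from 42.3 ± 9.37 to 26.8 ± 3.19 CPM (log2 fold change -0.66, SE 0.15, edgeR adjusted p = 0.0112). KIF23, the motor of the centralspindlin complex, fell from 52.5 ± 8.94 to 37.4 ± 4.12 CPM without overlap (log2 fold change -0.49, SE 0.13, edgeR adjusted p = 0.0229). CEP55, a midbody protein of abscission, and KIF20B, a kinesin of the midzone, fell with log2 fold changes of -0.44 and -0.46 (edgeR adjusted p = 0.0329 and 0.0466). KIF20A and KIF14 kept their calls when any 1 tumour was left out, and without no-stress tumour 1 the adjusted p was 0.0809 for KIF23, 0.107 for CEP55 and 0.147 for KIF20B.

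ECT2 and ANLN stood apart from the other well-measured genes. ECT2, the exchange factor that activates RhoA at the division plane, was at 264, 252, 256, 268 and 197 CPM in the no-stress tumours, at 259.7, 278, 266, 228 and 246 CPM in the stress tumours and at 266, 255, 247, 239 and 265 CPM in the post-stress tumours. All 3 groups overlap, and its lowest value is that of no-stress tumour 5 (log2 fold change 0.046, SE 0.085, edgeR adjusted p = 0.782). The sign of the ECT2 value turned to -0.021 without no-stress tumour 5. ANLN, anillin, the scaffold of the contractile ring, was at 90.8, 73.96, 69.8, 78.1 and 55.6 CPM in the no-stress and at 63.2, 68.7, 74.7, 62.9 and 59.1 CPM in the stress tumours. No stress tumour was below the no-stress range (log2 fold change -0.16, SE 0.12, edgeR adjusted p = 0.406). PRC1, which bundles antiparallel microtubules at the midzone, was at 1.40, 1.26, 1.30, 0.501 and 1.41 CPM and at 0.903, 0.906, 0.808, 0.541 and 0.423 CPM, and its log2 fold change of -0.71 had an SE of 0.35 (edgeR adjusted p = 0.208).

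**Figure D3:**
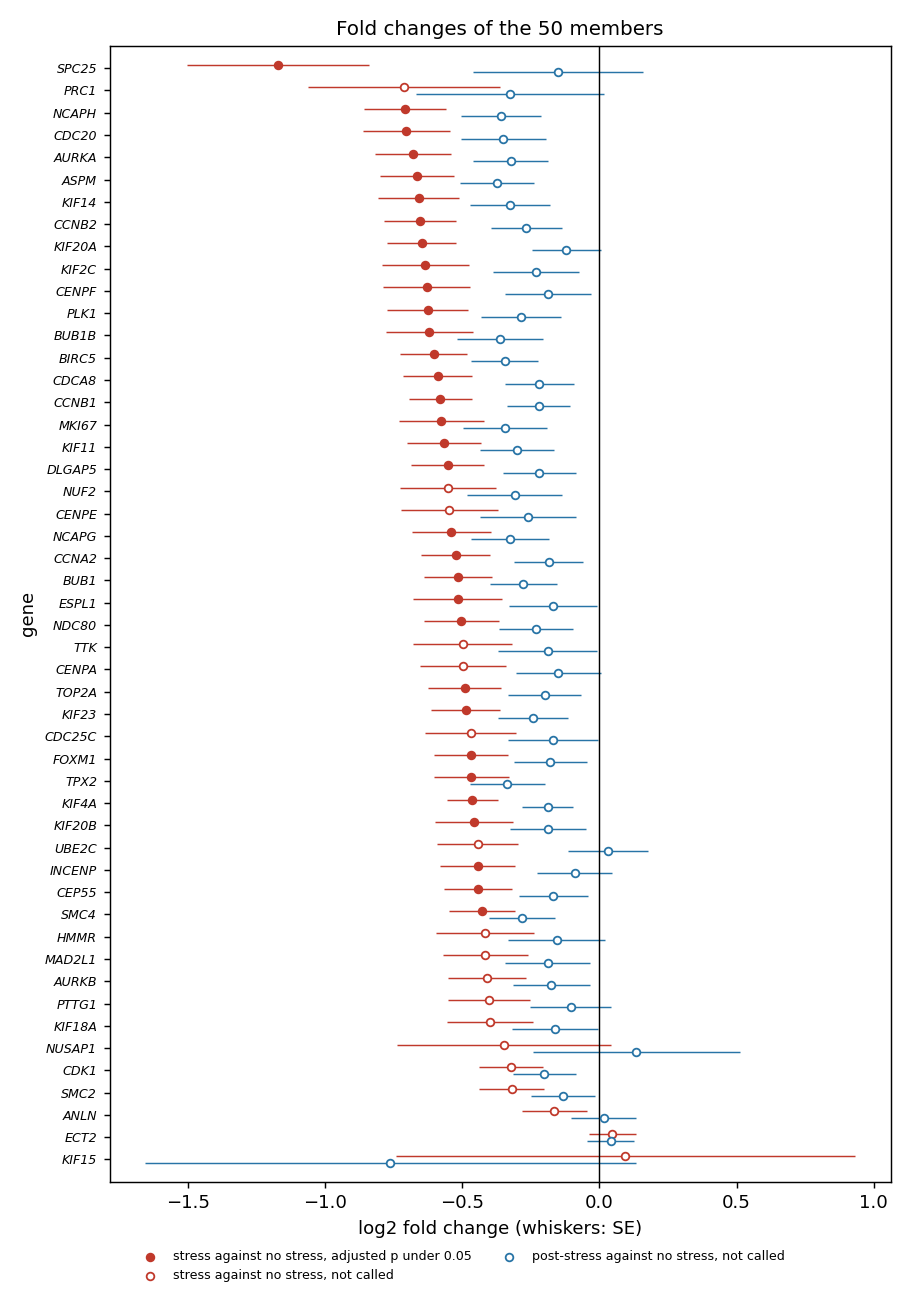
Log2 fold changes of the 50 genes against no stress, with the SE as whiskers, in the stress (red) and post-stress (blue) groups, ordered by the stress value. Filled points have an adjusted p under 0.05. Most stress values lie between -0.71 and -0.32, the post-stress values of most genes lie between them and 0, and ECT2 and KIF15 are the 2 genes with a stress value above 0.

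Because the members sit on genes of different length, levels were compared per kilobase of merged GENCODE 29 exon models. TOP2A was the highest in the no-stress tumours, at 65.9 ± 13.8 CPM per kilobase (SD, n = 5). ECT2 followed at 45 ± 5.28, CCNB1 at 35.9 ± 7.03 and CDC20 at 33.4 ± 7.71 CPM per kilobase, of which CCNB1 and CDC20 differ by less than either SD. In the stress tumours TOP2A (46.9) and ECT2 (46.5) stood side by side per kilobase, ahead of CCNB1 (24). The 4 lowest were SPC25 (0.864), NUSAP1 (0.230), PRC1 (0.213) and KIF15 (0.165 CPM per kilobase). In the GENCODE 29 models 62.2% of the exon bases of NUSAP1 are shared with AC087721.2, on the same strand. Of those of PRC1 58.4% are shared with other genes, mainly AC068831.7, also on the same strand. AC087721.2 held 2 counts over all 15 libraries against 136 for NUSAP1, and AC068831.7 held 844 against 203 for PRC1. KIF15 (165 counts) and SPC25 (267 counts) share no exon base with another gene. How the counting step treated shared bases was not tested, and values of NUSAP1 and PRC1 are uncertain for that reason. The same limit touches NCAPG, with 33.1% of its exon bases shared with LCORL on the opposite strand, and SMC4, with 25.6% shared with other genes, mainly TRIM59 on the opposite strand.

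In the post-stress tumours 0 of the 50 genes were called by edgeR against no stress, lower or higher, where 0.246% of all tested genes were called lower and 0.596% higher. DESeq2's Wald test and limma-voom also called 0. With edgeR, unadjusted p was under 0.05 for 13 of the 50 genes, and for 2341 of the 15435 tested genes in either direction. The number among the 50 rested on single tumours: it was 1 without no-stress tumour 1, 23 without no-stress tumour 5, and 2, 5 and 7 without post-stress tumours 1, 3 and 4. It was 1 with the mouse share as a covariate. The log2 fold change was negative for 46 of 50 and its median was -0.21, a level of 0.865 of no stress, against -0.0059 over all tested genes. No gene had all post-stress tumours below all no-stress tumours, which 1.89% of all tested genes had. The lowest adjusted p was that of BIRC5, at 51.4, 59.9, 66.98, 52.2 and 60.1 CPM in post-stress tumours 1 to 5, 4 of them below every no-stress tumour (log2 fold change -0.35, SE 0.12, edgeR adjusted p = 0.183). ASPM was at 63.6, 101, 72.03, 74.5 and 75.5 CPM and NCAPH at 19.8, 33.9, 25.4, 25.95 and 32.01 CPM. Post-stress tumour 2 was the highest of its group for both, and tumour 1 the lowest (log2 fold change -0.37, SE 0.13, edgeR adjusted p = 0.198 for ASPM). KIF20A was at 26.1, 39.4, 39.6, 36.7 and 39.6 CPM, where tumour 1 lies near the stress level and the other 4 within the no-stress range (log2 fold change -0.12, SE 0.13, edgeR adjusted p = 0.707). CCNB1 was at 64.1, 85.6, 83.04, 81.98 and 79.3 CPM, again with tumour 1 low. UBE2C had a mean of 26.5 ± 4.54 CPM in the post-stress and 25.96 ± 3.75 CPM in the no-stress tumours (log2 fold change 0.032, SE 0.15, edgeR adjusted p = 0.944). Both comparisons use the same 5 no-stress tumours, so their values are not independent.

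Between the restrained groups 0 of the 50 genes were called by edgeR, lower or higher, where 0.013% of all tested genes were called lower in the stress group and 0.0259% higher. Unadjusted p was under 0.05 for 24 of the 50, and for 1716 of the 15435 tested genes in either direction. The number among the 50 was 10 without stress tumour 1 and 13 without stress tumour 2, and 10 and 15 without post-stress tumours 2 and 5. DESeq2's Wald test called 1 gene lower, KIF20A, as did edgeR without the filter on low counts and edgeR without stress tumour 4, while limma-voom called 0. The log2 fold change of stress against post-stress was negative for 48 of 50, with a median of -0.29, a level of 0.817 of post-stress, against -0.0031 over all genes. KIF20A had the lowest adjusted p (log2 fold change -0.53, SE 0.13, edgeR adjusted p = 0.125), and 4 of its 5 stress tumours were below every post-stress tumour. DLGAP5 was the 1 gene whose stress tumours (19.3, 22.4, 23.2, 23.2 and 25.2 CPM) all lay below its post-stress tumours (25.4, 31.5, 30.5, 25.3 and 30.2 CPM), which 0.752% of all tested genes showed. The distance between its groups was small, from 25.2 to 25.3 CPM (log2 fold change -0.33, SE 0.13, edgeR adjusted p = 0.347). The post-stress mean lay between the means of the other groups for 45 of the 50 genes, for which no share over all tested genes was computed. The genes moved together within tumours, so the 45 are not independent observations.

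The tumours of a group differed from each other across the whole set at once. The mean log2 CPM of the 50 genes was 5.09 ± 0.23 in the no-stress, 4.59 ± 0.13 in the stress and 4.88 ± 0.14 in the post-stress tumours (SD, n = 5 each). The no-stress tumours ran from 4.81 to 5.45 and the stress tumours from 4.45 to 4.74, without overlap. The post-stress tumours ran from 4.69 to 5.07 and overlapped both. In no-stress tumour 1 the level of 49 of 50 genes was above the mean of its own group, and in no-stress tumour 5 that of 48 was below. These are the 2 tumours with the highest mouse shares, and they lie at opposite ends of their group. In post-stress tumour 2 the level of 48 genes was above its group mean, and in post-stress tumour 1, the library with the lowest mouse share, that of 44 was below. With the mouse share as a covariate 30 of the 50 genes were called lower in the stress group. For the 46 genes of at least 2 CPM without stress, the median SD was 20.1% of the mean in the no-stress, 12.7% in the stress and 15.1% in the post-stress tumours.

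**Figure D4:**
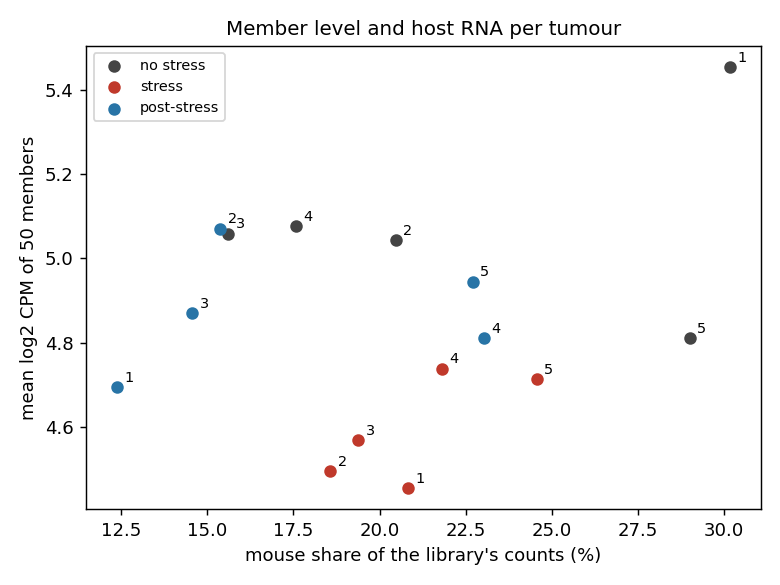
Mean log2 CPM of the 50 genes in each tumour against the share of mouse counts in its library in percent. Numbers are replicates. The 5 stress tumours lie between 4.45 and 4.74, below all no-stress tumours, at mouse shares of 18.6 to 24.6%, and no-stress tumours 1 and 5, at 30.2% and 29%, are the highest and the lowest of their group.

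Other genes of cell division were taken from lists of neighbouring processes. Of 38 tested other periodic genes of G2 and M, 21 were called lower in the stress group (median log2 fold change -0.51) and 1 higher. Of all tested genes 5.22% were called lower there and 5.23% higher. The periodic genes with the smallest p were KIF22, a chromokinesin, at 43.2 ± 6.30 and 30.5 ± 1.44 CPM (log2 fold change -0.50, SE 0.089, edgeR adjusted p = 0.00391), PKMYT1, a kinase that inhibits CDK1 (log2 fold change -0.76, SE 0.14, edgeR adjusted p = 0.00419), KPNA2, an importin (log2 fold change -0.59, SE 0.12, edgeR adjusted p = 0.00642), and CDCA3, a trigger of WEE1 destruction (log2 fold change -0.82, SE 0.17, edgeR adjusted p = 0.00679). The periodic gene that was higher was WEE1, the kinase that holds CDK1 inactive, at 32.8 ± 6.38 CPM without stress and 47.5 ± 5.85 CPM with stress (log2 fold change 0.54, SE 0.13, edgeR adjusted p = 0.0134). Its post-stress level was 43.6 ± 5.44 CPM (log2 fold change 0.41, SE 0.13, edgeR adjusted p = 0.126). Of 27 tested other kinetochore and centromere genes 9 were called lower, with a median of -0.28. They include ZWINT, which tethers the checkpoint (log2 fold change -0.64, SE 0.13, edgeR adjusted p = 0.00679), and the centromere proteins CENPN, CENPM and CENPL, with log2 fold changes of -0.54, -0.84 and -0.52.

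Lists of complexes and regulators, many of whose genes are expressed through most of the cycle, had medians near 0. In the stress group each had a smaller share called lower than the other periodic genes. Each share was still above the 5.22% of all tested genes. Of the anaphase-promoting complex 2 of 15 genes were called lower (median -0.092), ANAPC1 (log2 fold change -0.31, SE 0.072, edgeR adjusted p = 0.0134) and ANAPC2, its largest and its catalytic subunit. Of cohesin and the other condensin subunits 4 of 13 were called lower (median -0.073). These were NCAPD3 (log2 fold change -0.52, SE 0.12, edgeR adjusted p = 0.0156), NCAPG2 and NCAPD2, which are condensin subunits, and SMC1A, a cohesin ATPase. Of augmin and the gamma-tubulin ring complex 4 of 15 were called lower (median -0.084), with TUBGCP3 at a log2 fold change of -0.42 and HAUS5, HAUS8 and HAUS2 at -0.43, -0.44 and -0.38. Of 16 MuvB, MYB and DREAM regulators 2 were called lower (median -0.11), MYBL2, which encodes B-MYB, at 35.1 ± 8.39 and 23 ± 3.10 CPM (log2 fold change -0.61, SE 0.18, edgeR adjusted p = 0.0365), and RBL1, the pocket protein p107 (log2 fold change -0.46, SE 0.13, edgeR adjusted p = 0.0313). No gene of these 4 lists was called higher in the stress group by edgeR, and in the post-stress group no gene of them or of the periodic and kinetochore lists was called by edgeR. There unadjusted p was under 0.05 for 2341 of the 15435 tested genes. It was under 0.05 for 10 of the 38 periodic, 7 of the 27 kinetochore and 4 of the 15 anaphase-promoting complex genes. The same held for 3 of the 13 cohesin and condensin, 5 of the 15 augmin and gamma-tubulin and 4 of the 16 regulator genes. Of the genes of these lists, KIF22 had the adjusted p nearest the threshold (0.0501).

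**Figure D5:**
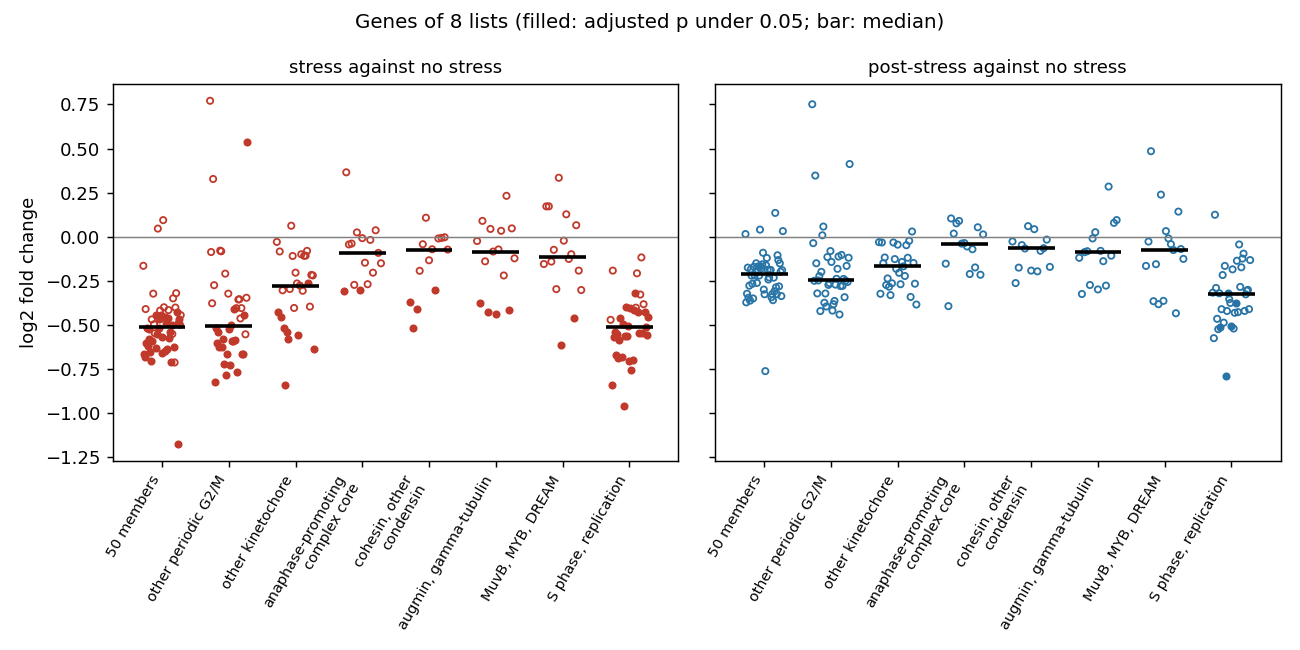
Each point is the log2 fold change of 1 gene in the stress (left) or post-stress (right) group against no stress, for the 50 genes and 7 other lists, and the bar is the median of a list. Filled points have an adjusted p under 0.05. In the stress group the medians of the 50 genes, the other periodic genes of G2 and M and the S phase genes are all -0.51, and those of the 4 lists of complexes and regulators lie between -0.11 and -0.073.

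Genes of S phase and DNA replication, the part of the cycle before G2, had the same median in the stress group, -0.51. Of these 35 genes 28 were called lower, where 5.22% of all tested genes were. FEN1, a nuclease of Okazaki fragments, had the smallest p of that list, at 68.9 ± 15.2 and 42.8 ± 2.21 CPM (log2 fold change -0.69, SE 0.11, edgeR adjusted p = 0.00241), followed by MCM6, a subunit of the replicative helicase, at 89.4 ± 17.5 and 54.8 ± 6.06 CPM (log2 fold change -0.71, SE 0.11, edgeR adjusted p = 0.00252). In the post-stress group 5 of 35 were called lower, FEN1, MCM6, MCM10, MCM3 and PCNA, where 0.246% of all tested genes were, and the median was -0.33 against -0.21 for the 50 mitotic genes. The mean log2 CPM of the mitotic genes minus that of the S phase genes was -0.055 ± 0.062 in the no-stress, -0.044 ± 0.023 in the stress and 0.055 ± 0.061 in the post-stress tumours (SD, n = 5 each). The no-stress tumours overlapped both other groups. All stress tumours (highest -0.012) lay below all post-stress tumours (lowest -0.0058), by a small distance. Whether the lists differ in the post-stress group was not tested.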

How the data were processed

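RNA of 15 A549 xenograft tumours, 5 per group, was extracted with TRIzol and, per the labels, made into libraries (Fast RNA-seq Lib Prep Kit V2). Raw counts per gene were deposited in 1 table. Per the submitters' processing notes, the authors used Trimmomatic (0.39), HISAT2 (2.2.1) with hg38 and mm10, and featureCounts (2.0.6), and the notes also name DESeq2 and edgeR. Not given in the sources used here are strandedness, the annotation release and whether both genomes were aligned together. Overlapping genes are therefore uncertain, and conserved mouse reads could be counted on human genes. A table of gene names gave symbols for 60507 of 60649 human identifiers. Exon models are from GENCODE 29 (GRCh38) and promoter windows from RefSeq (GRCh38.p14).

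Columns were matched to groups by name: Control to no stress, Pre to stress and Post to post-stress. Human counts were filtered with filterByExpr (15435 genes, 99.8% of human counts), scaled with TMM and fitted with the robust quasi-likelihood model of edgeR (4.0.16, with limma 3.58.1 in R 4.3.3) on all 15 libraries, whose biological coefficient of variation was 0.187. An adjusted p (Benjamini-Hochberg) under 0.05 made a call. The SE is the size of the log2 fold change divided by the square root of F. No gene list was tested as a set, and some marker genes are not reported here. Named were all 50 genes, up to 4 of each other list with the smallest p, list members called higher and, chosen after their values were seen, the S phase genes called in the post-stress group. The 50 genes and the lists were chosen with earlier results of these data known. Replicates are tumours numbered in the titles. Nothing states which mice they came from, so p-values cover the spread between these samples. Any 2 libraries of a group differed beyond sampling noise (chi-square per gene 11.9 to 40.3).

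Alternatives were DESeq2 size factors, total human counts, the Wald test of DESeq2 (1.42.0), limma-voom, no filter beyond 1 count summed over the libraries, a filter of 1 CPM in 5 libraries, the 2 compared groups alone, the replicate number as a block, the mouse share as a covariate, and leaving out each tumour or no-stress tumours 1 and 5. Simulated data were used to test the fit.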

Additional observations from a re-analysis of the deposited data

Results flagged for a closer look

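In 12 of 150 sets of 5 tumours (50 genes in 3 groups) 1 tumour stood far from the other 4. Its gap to its nearest neighbour was above 0.71 of the range of its group, both taken on log2 CPM, while the values printed here are CPM. Chance alone gives about 1 such set in 20. No-stress tumour 1 was high for CDC20 (96.1 CPM, the others 60.2 to 61.8), CENPA (25.1 CPM, the others 14.9 to 16.8) and KIF20A (52.3 CPM, the others 33.5 to 37.8). No-stress tumour 4 was low for PRC1 (0.501 CPM, the others 1.26 to 1.41), and no-stress tumour 5 for ECT2 (197 CPM, the others 252 to 268).

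Post-stress tumour 1 was low for CCNB1 (64.1 CPM, the others 79.3 to 85.6), CDCA8 (16.2 CPM, the others 23.3 to 25.1), KIF20A (26.1 CPM, the others 36.7 to 39.6) and NUSAP1 (0.276 CPM, the others 0.701 to 0.927). Stress tumour 5 was low for TTK (11.01 CPM, the others 12.8 to 13.5) and high for AURKB (17.99 CPM, the others 12.3 to 13.7), and stress tumour 4 was high for KIF20A (28.9 CPM, the others 23.8 to 24.6). KIF20A is the 1 gene with such a tumour in every group.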

How the results depend on the processing

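The 32 genes called lower in the stress group became 28 to 36 under the other tools, scalings, filters, covariate and the fit of the compared groups alone. They became 20 without no-stress tumours 1 and 5, and 13 to 40 when each tumour was left out in turn. Of the 32, 13 were called in all 15 fits that left out 1 tumour and 12 in every alternative run, the latter being CCNB1, CCNB2, PLK1, AURKA, BUB1, BIRC5, CDCA8, KIF4A, ASPM, NCAPH, KIF14 and KIF20A. In the same leave-one-out fits the median of the 50 ran from -0.59 to -0.39 in the stress and from -0.28 to -0.11 in the post-stress group, and from -0.34 to -0.24 between the restrained groups. Between the restrained groups DESeq2's Wald test and the fit without a filter each called 1 of the 50 genes (KIF20A, adjusted p = 0.0178 and 0.0158), and leaving out a tumour gave 0 to 1 (without stress tumour 4, adjusted p = 0.0413). Genes of the 50 with an unadjusted p under 0.05 numbered 5 in the post-stress group with the 2 groups alone, and 14 between the restrained groups with total counts. The cause of these changes was not tested.

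With the replicate number as a block, 15 of the 50 genes were called lower in the stress group. Unadjusted p was then under 0.05 for 3 of the 50 in the post-stress group and for 12 between the restrained groups. Same-numbered tumours did not deviate together (correlations from -0.19 to 0.12, and 1 of 15 pairs was the best match for its number). Weak correlations cannot exclude a pairing, and the labels do not say what the numbers stand for. Whether the numbers pair the samples is therefore not known.

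Counts over all human genes moved too. Lower in the stress group were 444 with the block, 251 without no-stress tumours 1 and 5, and 285 to 865 when each tumour was left out, and higher were 295 without those 2 and 376 to 969. Lower in the post-stress group were 62 with total counts, 177 with DESeq2, 10 with the block, 7 with the mouse share, 13 with the 2 groups alone, 4 without no-stress tumours 1 and 5, and 5 to 45 with a tumour left out. Higher there were 59, 327, 47, 31, 36, 28, and 32 to 101 in the same order. Between the restrained groups, lower were 56 with DESeq2, 14 without a filter, 0 with the block, 0 with the mouse share, 0 with the 2 groups alone, and 0 to 51 with a tumour left out. Higher were 147, 22, 0, 0, 1, and 0 to 138 in the same order.

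In the alternatives run, the genes whose sign turned were not called. In the stress group KIF15 was at -0.36 with limma-voom and -0.29 with the replicate block, and ran from -0.62 to 0.68 with a tumour left out. There ECT2 was at -0.021 without no-stress tumours 1 and 5 and ran from -0.021 to 0.091. In the post-stress group the value with total counts was -0.020 for UBE2C, -0.035 for ANLN and -0.0092 for ECT2, with the mouse share it was -0.0085 for ANLN and -0.013 for ECT2, and without no-stress tumours 1 and 5 it was -0.026 for ECT2. With a tumour left out it ran from -0.25 to 0.010 for CDC25C, from -0.30 to 0.039 for TTK, from -0.25 to 0.0041 for CENPA, from -0.27 to 0.019 for HMMR, from -0.20 to 0.0051 for PTTG1 and from -0.17 to 0.0070 for KIF20A, each with its highest value without no-stress tumour 1. It ran from -0.33 to 0.14 for SPC25, from -0.043 to 0.11 for UBE2C, from -0.063 to 0.11 for ANLN and from -0.024 to 0.079 for ECT2. Between the restrained groups ECT2 was at -0.0067 without a filter and ran from -0.028 to 0.040 with a tumour left out. Low depth limits KIF15, NUSAP1, PRC1 and SPC25, which had 136 to 267 counts over all 15 libraries.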
